A study of Mus musculus with 4 samples.

Results

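Translation elongation factors carry aminoacyl-tRNA to the ribosome and move the ribosome along the mRNA, and the genes described here are the 7 listed symbols Eef1a1, Eef1a2, Eef1b2, Eef1d, Eef1g, Eef2 and Eef2k. They were taken by gene family around 1 gene, Eef1a2, which was chosen by its difference between the groups in these same arrays. Of 22690 probe sets (each a group of short probes that reports on 1 transcript), 8 are assigned by the platform annotation to 1 of these symbols alone, and they cover 6 of the 7 genes. Eef1g had no probe set of its own.

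The data are 4 Affymetrix arrays (1 colour each). They profile Py-4-1, a line of mouse hemangioendothelioma cells, which come from a tumour of the endothelium. Each array holds total RNA from 1 dish of 1 stably transfected clone, with 2 clones that received pcDNA, the control plasmid, and 2 that received pcDNA/Prox1 and are labelled as expressing Prox1, a homeobox transcription factor of lymphatic endothelium. All 4 share the Py-4-1 background and differ, per the labels, in the plasmid alone. Each group is 2 single clones, so differences between clones, dishes and array handling cannot be told apart. The p-values therefore do not reach beyond these 4 samples. They set the difference between the groups against the spread between clones of a group, drawn toward a trend fitted over all probe sets in the fit.

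The protein eEF1A binds aminoacyl-tRNA together with GTP and delivers it to the ribosome. Mammals make it from a pair of genes, Eef1a1, expressed in nearly all cells, and Eef1a2, which takes over in adult neurons, heart and skeletal muscle and is often raised in tumours. The eEF1B subunits, encoded by Eef1b2, Eef1d and Eef1g, reload eEF1A with GTP, eEF2 drives translocation of the ribosome, and the kinase eEF2K phosphorylates eEF2 and slows elongation.

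The regions before the Eef1a1 and Eef1a2 start sites are shown because these paralogues differed in how they moved. Each run is the 250 bases upstream of the RefSeq start in GRCm38.p6, on the minus strand, written 5′ to 3′, at chr2:181157016-181157265 for Eef1a2 and at chr9:78481725-78481974 for Eef1a1. Capitals mark every match to GGGCGG, the GC box, or its reverse complement CCGCCC.
Eef1a2: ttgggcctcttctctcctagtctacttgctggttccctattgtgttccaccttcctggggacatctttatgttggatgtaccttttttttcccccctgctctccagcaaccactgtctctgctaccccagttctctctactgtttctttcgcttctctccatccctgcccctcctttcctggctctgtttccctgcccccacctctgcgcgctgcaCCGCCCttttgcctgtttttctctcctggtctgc
Eef1a1: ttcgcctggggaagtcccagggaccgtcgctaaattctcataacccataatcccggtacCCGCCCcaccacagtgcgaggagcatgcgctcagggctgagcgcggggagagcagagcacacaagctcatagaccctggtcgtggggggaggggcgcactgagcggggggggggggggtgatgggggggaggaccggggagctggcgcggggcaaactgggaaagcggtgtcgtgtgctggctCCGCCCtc
The upstream regions differ in base composition. Eef1a2 had 54.0% G or C with 4 CpG dinucleotides, and Eef1a1 had 68.0% with 18, where the median of 32851 upstream windows in the same table was 52.4% with 6. C or T made up 76.8% of the strand shown for Eef1a2, a share that 0.113% of windows exceeded, and 40.4% for Eef1a1. Eef1a2 held 1 GC box, at position -34 from the start, and Eef1a1 held 2, at -191 and -8, and 32.7% of all windows held at least 1. On either strand neither region held TATAAA (the TATA box, in 12.4% of windows), CCAAT (33.8%) or CACGTG (an E-box, 6.02%). For Eef2 the window held 1 TATA box at -15 and 1 E-box at -43. These matches describe the letters alone, and their part in the expression values was not tested.

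Eef1a2 was the member with the largest difference between the groups, and the 1 member called. It was measured by 1 probe set (1418062_at), which read 148.6 and 126.1 in control clones 1 and 2. Prox1-labelled clones 1 and 2 read 524.7 and 552.3. Both Prox1-labelled clones were far above both control clones, and the groups did not overlap. Group means were 137.3 ± 15.9 (SD, n = 2) and 538.5 ± 19.5, a ratio of 3.92. On the log2(intensity + 47) scale used for all changes here, where 47 is a pseudocount that damps dim values, Eef1a2 was higher by 1.67 ± 0.20 (SE of the limma fit). The limma adjusted p of 0.0298 is the value by which the gene was chosen, and is given as a description only.

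The size of the Eef1a2 difference varied little with the clone left out. Without control clone 1 it was 1.76, without control clone 2 it was 1.58, and without Prox1-labelled clones 1 and 2 it was 1.70 and 1.64. The control clones differed from each other by 0.18 in log2 and the Prox1-labelled clones by 0.068. From lowest to highest the order was control clone 2, control clone 1, Prox1-labelled clone 1 and Prox1-labelled clone 2. The gaps inside each group were small beside the step between the groups. Choosing Eef1a2 by this contrast favours such small gaps and such agreement with a clone left out, so no stability is read from them. In the control clones Eef1a2 lay below the median of its array (162.7 and 176.6) but above the highest of 27 Bacillus control probe sets (45.3 and 100.7), which match no mouse gene. It therefore passed the intensity filter, above the array median in at least 2 of 4 arrays, only through the Prox1-labelled clones. Its call was lost under quantile normalization (adjusted p = 0.0582) and without the filter or with one at the 75th percentile (adjusted p = 0.367 for both, since below that stricter filter it was read from the fit without one), in a range from 0.0024 over 13 alternatives, while the log2 change ran from 1.20 to 1.98.

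**Figure D1:**
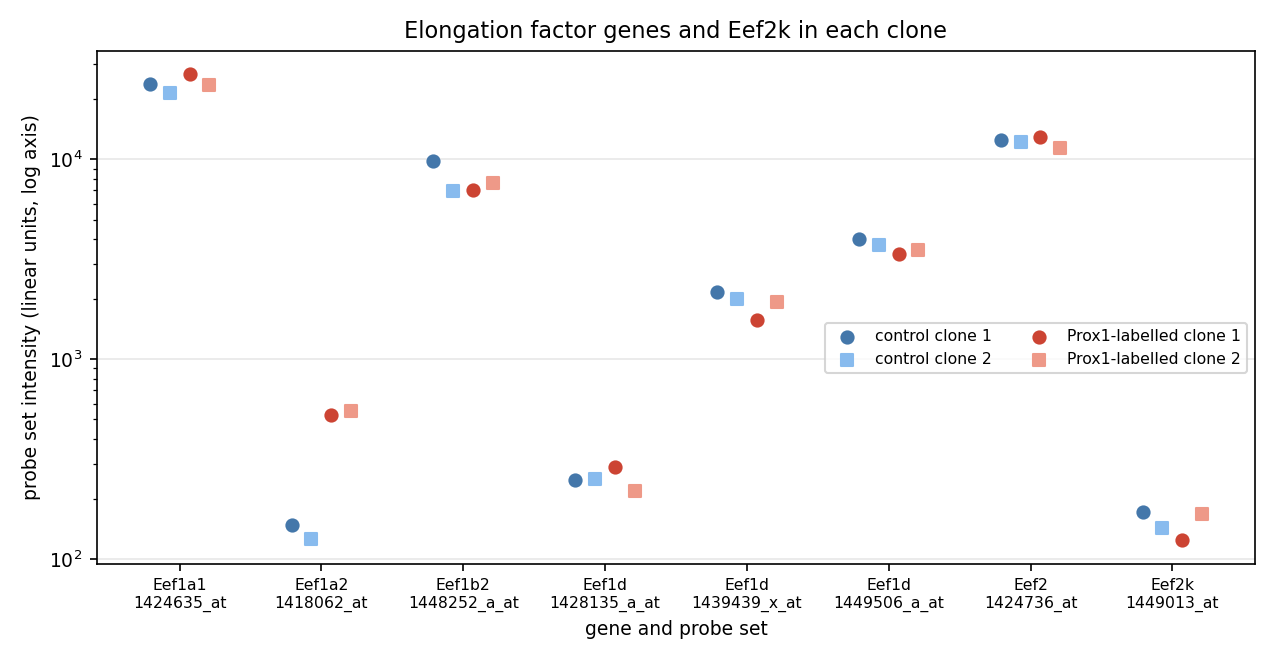
Intensity (linear units on a log axis) of each of the 8 member probe sets, with 1 point for each clone. Eef1a2 reads 524.7 and 552.3 in the Prox1-labelled clones against 148.6 and 126.1 in the control clones, while the points of the other probe sets lie close together, and heights of different probe sets are not comparable with each other.

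Eef1a1, the widely expressed paralogue, had no such step. Its probe set (1424635_at) read 23922 and 21569 in the control clones, against 26732 and 23441 in the Prox1-labelled clones. Prox1-labelled clone 2 fell between the control clones, so the groups overlapped. The log2 change was 0.14 ± 0.15, with a 95% interval from -0.21 to 0.49 (limma, adjusted p = 0.736). An intensity depends on the probes as well as on the transcript, so the brightness of the Eef1a1 probe set beside that of Eef1a2 does not give their ratio in the cell.

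Set against Eef1a1 within each array, Eef1a2 was higher by 1.53 ± 0.13 (SE from the spread within groups) in log2, a factor of 2.89 on the scale with the pseudocount. Relative to the mean of the control clones, Eef1a2 stood at 1.64 in Prox1-labelled clone 1 and 1.70 in clone 2, and Eef1a1 at 0.24 and 0.045. This difference between the paralogues was 1.54 and 1.52 without control clones 1 and 2, and 1.66 and 1.40 without Prox1-labelled clones 1 and 2. It was 1.83 without a pseudocount and 1.06 with the median intensity, 173, as pseudocount. No test is attached, since Eef1a2 was selected on its own change.

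The subunits that recharge eEF1A gave small differences of mostly negative sign. Eef1b2, which encodes the eEF1B alpha subunit, read 9845 and 6942 in the control clones, against 7014 and 7613 in the Prox1-labelled clones (1448252_a_at). Control clone 1 was high, and the other 3 clones lay close together. The log2 change was -0.18 ± 0.20 (95% interval -0.63 to 0.27, limma adjusted p = 0.743), smaller than the difference of -0.50 between control clones 2 and 1. Without control clone 1 it turned to 0.073, and without control clone 2 it was -0.43.

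Eef1d encodes the delta subunit, a second exchange factor of the complex, and had 3 probe sets. The brightest (1449506_a_at) read 3985 and 3747 in the control clones, against 3362 and 3509 in the Prox1-labelled clones, a log2 change of -0.17 ± 0.17 (95% interval -0.55 to 0.21, limma adjusted p = 0.710). The next (1439439_x_at) went from 2170 and 2007 to 1569 and 1944, a log2 change of -0.25 ± 0.19 (adjusted p = 0.597). Without Prox1-labelled clone 1 that change was -0.10, and without clone 2 it was -0.40. In both the Prox1-labelled clones lay below the control clones without overlap. The dimmest (1428135_a_at) read 249.8 and 250.3 against 288.2 and 218.6, with the Prox1-labelled clones on either side of the controls and a log2 change of 0.006 ± 0.22 (adjusted p = 0.994). The 3 probe sets thus did not share 1 direction, and the suffixes x and a mark probes that can match several transcripts.

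Eef1g encodes the gamma subunit, which holds the complex together. The annotation gives its probe set (1417364_at) to 2 genes, so the values are named for neither. They were 13017 and 11835 in the control clones, against 11580 and 10414 in the Prox1-labelled clones, with both Prox1-labelled clones the lower (log2 change -0.18 ± 0.16, limma adjusted p = 0.670).

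Eef2, the translocase, was nearly level across the clones. Its probe set (1424736_at) read 12496 and 12227 in the control clones, against 12987 and 11406 in the Prox1-labelled clones, which bracketed the controls. The log2 change was -0.022 ± 0.16, with a 95% interval from -0.38 to 0.33 (limma adjusted p = 0.967), and it was 0.071 without Prox1-labelled clone 2.

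Eef2k, the kinase that restrains eEF2, was dim. Its probe set (1449013_at) read 171.9 and 143.5 in the control clones, against 124.2 and 168.7 in the Prox1-labelled clones, above the array median in 1 array alone, so it stayed below the filter. Read from the fit without the filter, the log2 change was -0.088 ± 0.24, with a 95% interval from -0.69 to 0.51 (limma adjusted p = 0.937). The groups overlapped, and the sign turned without control clone 1 (0.012) and without Prox1-labelled clone 1 (0.079).

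Of the 8 probe sets, 7 passed the filter and were tested, and 1 of them, that of Eef1a2, was called higher at an adjusted p under 0.05. Over all 11656 probe sets tested 12 were called, or 0.103%, and 11 of these were higher, or 0.0944%. As Eef1a2 was chosen from that same contrast, nothing is read from this count. The other 7 member probe sets had log2 changes from -0.25 to 0.14 and adjusted p-values from 0.597 to 0.994. Groups did not overlap for 3 of the 8, with Eef1a2 higher and 2 probe sets of Eef1d lower, where 46.2% of all probe sets tested did not overlap.

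**Figure D2:**
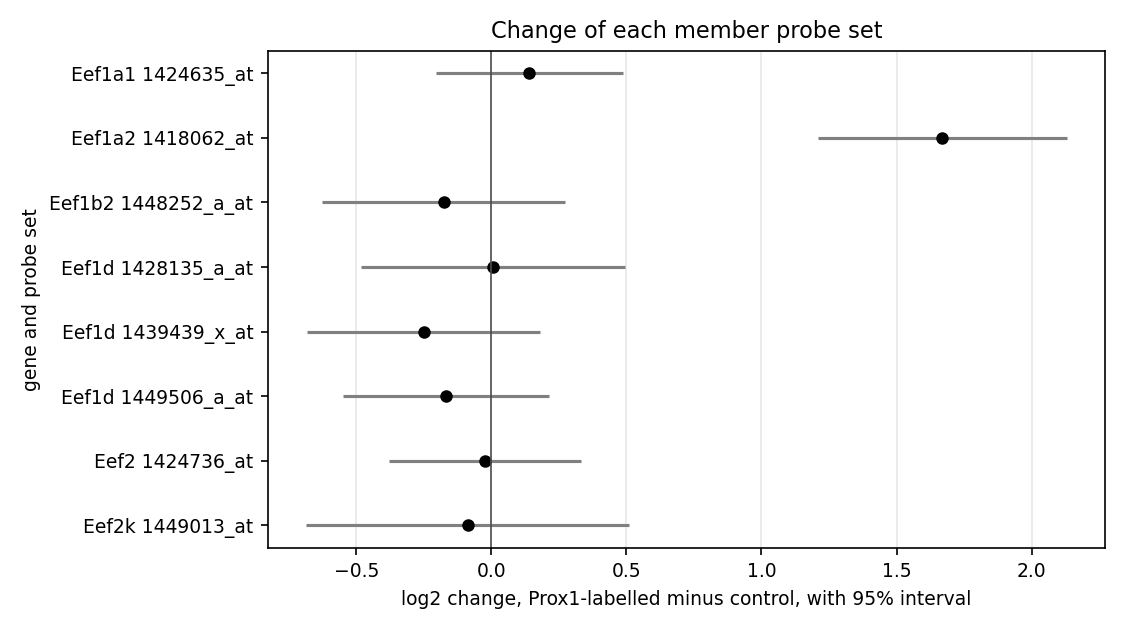
Log2 change (Prox1-labelled minus control, on the log2(intensity + 47) scale) of each of the 8 member probe sets as points, with bars for the 95% interval of the limma fit. The bars of 7 probe sets cross 0, with points from -0.25 to 0.14, and Eef1a2 lies at 1.67.

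The labelled cell type and the tissues in which Eef1a2 is the usual form were examined by marker genes. Of 11 endothelial markers 9 passed the filter, among them the adhesion molecule gene Pecam1 (5679 and 5418 in the control clones, 6242 and 5826 in the Prox1-labelled clones). Their summed intensity was 31473 and 41389 in the control clones, against 45070 and 41488 in the Prox1-labelled clones, which lay above both controls, by little for clone 2. Of the 11, 4 were higher and 0 lower without overlap, with a median log2 change of 0.35 and 0 called. Over all 11656 probe sets tested, 46.2% did not overlap, with 2786 higher and 2595 lower, so no rise is read from this count. Of the 4 higher, Flt1 (42.14 and 181.7 against 390.5 and 369.7, log2 change 1.58, limma adjusted p = 0.164) and Tek (0.92, adjusted p = 0.166) changed most. Erg (18.35 and 21.06 against 18.66 and 124.5) and Cldn5 (55.5 and 16.67 against 66.2 and 49.46) did not pass the filter. Of 12 neuronal markers 0 passed the filter, and 0 were above the highest Bacillus control on all arrays, with sums of 584.0 and 468.0 against 561.6 and 580.8. The neuronal markers Snap25, Tubb3, Map2, Nefm, Rbfox3 and Gap43 were at or below that control on every array. Without overlap, 2 neuronal markers were higher and 1 lower. Of 18 striated muscle markers 2 passed the filter and 0 were called, with sums of 1156 and 1227 in the control clones, against 1298 and 1160 in the Prox1-labelled clones. Without overlap, 3 muscle markers were higher and 3 lower, beside the same 46.2% of all probe sets tested. That share covers probe sets past the filter, which most muscle markers and all neuronal markers were not, so nothing is read from these counts. The cardiac troponin gene Tnnt2, 1 of those that passed the filter, read 104.8 and 301.4 in the control clones, against 317.2 and 318.7 in the Prox1-labelled clones. The myosin gene Myh7 read 28.25 and 27.05 against 85.91 and 61.3 (limma without the filter, adjusted p = 0.396). Other muscle markers went the other way. Des, which also passed the filter, read 256.0 and 162.5 against 168.5 and 174.5, with overlap. Mylpf, 1 of the 3 lower, read 99.72 and 22.46 against 6.515 and 9.948 (limma without the filter, adjusted p = 0.484). Myh7 and 7 others, Myog, Acta1, Tnnt1, Tnni1, Tnnc2, Myh3 and Ryr1, were at or below the Bacillus control on every array. The part of these markers in the Eef1a2 difference was not tested. Sums of leukocyte (1223 to 1652), fibroblast and smooth muscle (424.6 to 749.6) and epithelial markers (204.0 to 343.9) were below the endothelial sums. Only the last had its highest value in a Prox1-labelled clone, clone 1. Of 6 leukocyte markers on the array, 3 were above the highest Bacillus control on all arrays. Among them Cd68 read 847.4 and 969.6 against 708.0 and 806.3, and Csf1r 239.7 and 443.0 against 374.9 and 334.6. In such bulk RNA, more expressing cells and more RNA per cell cannot be told apart.

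Prox1 itself, measured by 1 dim probe set (1421336_at), was not raised in the clones labelled for it. It read 52.1 and 60.5 in the control clones, against 62.4 and 44.3 in the Prox1-labelled clones (log2 change -0.047, limma without the filter, adjusted p = 0.963), and above the highest Bacillus control in 1 array alone. Whether its probes lie in the transfected sequence is not given in the sources used here. The directions above therefore rest on the labels.

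The wider translation machinery gave 0 calls. In 5 lists of translation factors and their regulators together, 72 genes were tested, each by its brightest probe set, and 0 passed in either direction in limma, where 0.115% of all genes tested did. With so small a share called over all genes, nothing about translation genes is read from these 0 calls. An unadjusted limma p under 0.05 was reached by 14 of the 72, and by 999 of all 6956 genes tested (14.4%). Of the 72, 26 had a positive and 46 a negative log2 change. Their median was -0.056, where the median of all 6956 genes tested was 0.007. Between control clones 2 and 1 these genes had a median difference of -0.11, larger than that between the groups.

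Genes tied to elongation beyond the core factors had 13 members tested of 21 listed, with 6 positive, 7 negative and a median of -0.001. Eef1e1, whose product sits in the multi-tRNA-synthetase complex, read 1756 and 1120 in the control clones, against 858.1 and 897.5 in the Prox1-labelled clones. Both Prox1-labelled clones were below both controls (log2 change -0.65 ± 0.23, limma adjusted p = 0.264). The control clones differed by almost as much, -0.63, and without control clone 1 or 2 the change was -0.34 or -0.96. It passed without control clone 2 (limma adjusted p = 0.0134), in a fit with a single control clone in which 9.87% of all probe sets tested were called. Eif5a encodes the hypusine-bearing factor eIF5A, which relieves stalled ribosomes, and read 13347 and 10470 against 8423 and 9455 (1451470_s_at, log2 change -0.40 ± 0.18, adjusted p = 0.344). Its other probe set (1437859_x_at) went from 4742 and 4016 to 2965 and 3328, again without overlap and again short of the threshold (adjusted p = 0.288). Over all probe sets tested 46.2% did not overlap, and Eef1e1 and Eif5a were named by the smallest p in the list, which favours this. The hypusine enzyme genes Dhps and Dohh, the diphthamide genes Dph2, Dph5, Dph6 and Dph7, which modify eEF2, and Eef1akmt1, a methyltransferase of eEF1A, did not pass in any probe set tested. Tpt1, which encodes a protein that binds the eEF1 complex, read 26061 and 21723 against 24997 and 21499 (adjusted p = 0.945).

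Initiation factors had more negative than positive changes, and 0 passed. Of 36 tested (46 listed), 13 were positive and 23 negative, where 3417 of all 6956 genes tested were negative. The median of -0.085 turned to 0.051 without control clone 1, so no direction is read from it. Eif4ebp1, the mTOR-controlled repressor of the cap-binding factor, read 3190 and 2759 in the control clones, against 2023 and 1866 in the Prox1-labelled clones (log2 change -0.60 ± 0.18, limma adjusted p = 0.207). Eif6, which keeps ribosomal subunits apart, read 4435 and 3703 against 2567 and 2941 (-0.55 ± 0.18, adjusted p = 0.238). Both were lower in each Prox1-labelled clone than in either control clone. They were named by the smallest p, which favours such a gap, and 46.2% of all probe sets tested did not overlap. The largest positive change in the list was 0.57 (Eif5b).

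Termination and recycling factors had 7 negative and 1 positive change among 8 tested (10 listed), with a median of -0.24. Pelo, a ribosome rescue factor, went from 356.1 and 361.6 to 222.6 and 159.3 (log2 change -0.78 ± 0.22, limma adjusted p = 0.188). Etf1, the release factor that reads stop codons, went from 2352 and 2466 to 1638 and 1838 (-0.46 ± 0.18, adjusted p = 0.289). In both genes the control clones agreed closely and the Prox1-labelled clones lay below them. Both were named by the smallest p in the list, a choice that favours such agreement and such a gap. Groups did not overlap for 46.2% of all probe sets tested, so nothing is read from this. The median of the list was -0.28 and -0.16 without control clones 1 and 2, and -0.35 and -0.15 without Prox1-labelled clones 1 and 2.

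Genes that act on eEF2K or on eEF2 had 10 members tested of 23 listed, with 3 positive, 7 negative and a median of -0.026. Mtor, whose kinase holds eEF2K back, read 392.2 and 500.3 in the control clones, against 751.9 and 636.6 in the Prox1-labelled clones (log2 change 0.59 ± 0.21, limma adjusted p = 0.254). Ppp2cb, a catalytic subunit gene of protein phosphatase 2A, read 2196 and 2026 against 1500 and 1446 (-0.51 ± 0.18, adjusted p = 0.255). Neither pair of groups overlapped and neither gene passed. Groups did not overlap for 46.2% of all probe sets tested, and naming genes by the smallest p favours this, so nothing is read from it.

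Mitochondrial translation factors, which serve the separate ribosomes of that organelle, had 5 members tested of 10 listed, 3 of them positive, with a median of 0.14. This median turned to -0.037 without control clone 1, -0.036 without control clone 2, -0.040 without Prox1-labelled clone 1 and -0.033 without probe sets of suffix s, x or a, so no direction is read from it. Gfm2, a mitochondrial elongation factor G that acts in ribosome recycling, went from 286.6 and 290.4 to 160.9 and 210.4 (log2 change -0.54 ± 0.22, limma adjusted p = 0.304). Mtif2, an initiation factor of mitochondria, went from 270.7 and 344.3 to 388.1 and 399.2 (0.32 ± 0.21, adjusted p = 0.523). Cytosolic ribosomal protein genes, 42 tested, had 20 positive and 22 negative changes with a median of -0.012, and 0 reached an unadjusted p under 0.05. Between control clones 2 and 1 their median difference was -0.29. Of the 2 with the smallest p, Rpl22 gave 0.37 (adjusted p = 0.368) and Rps27 gave -0.67 (adjusted p = 0.403), the latter with 858.9 in control clone 1 and 325.0 to 351.1 in the other clones.

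**Figure D3:**
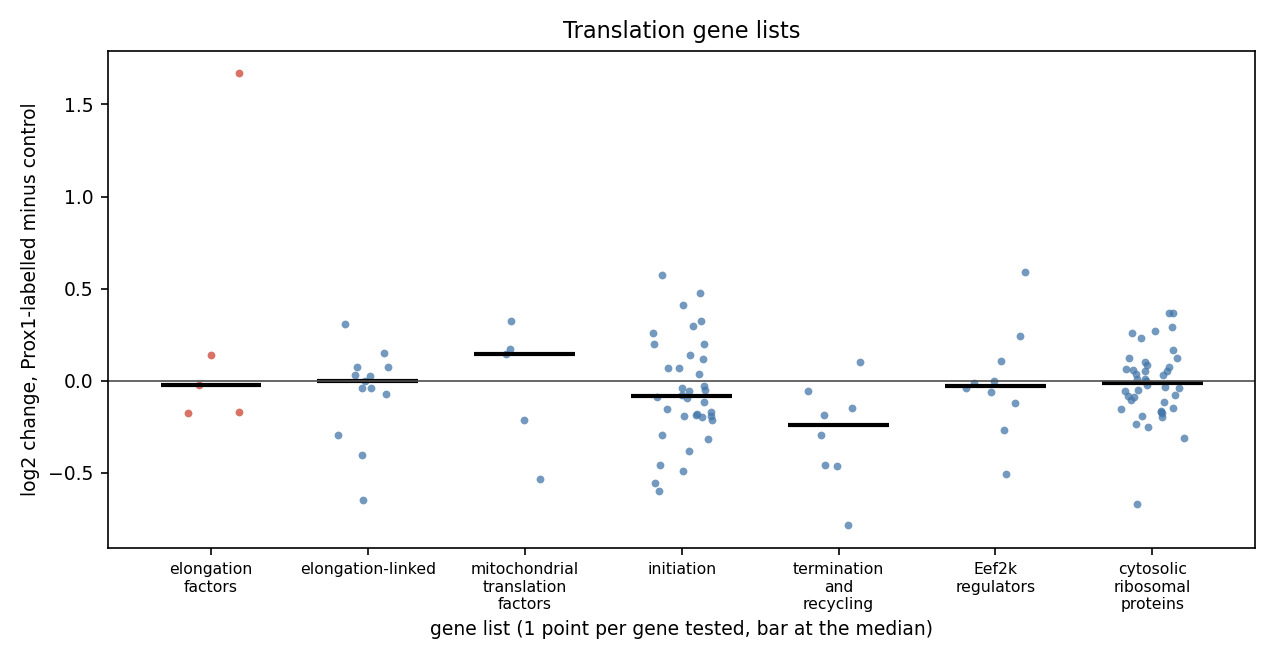
Log2 change (Prox1-labelled minus control) of each gene tested in the elongation factor set (red) and in 6 translation gene lists (blue), with a bar at each median. Eef1a2 lies at 1.67, above every gene of the 6 lists, which run from -0.78 to 0.59. Its selection by this same contrast favours that place. The medians lie between -0.24 and 0.14.

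The genes whose profile over the 4 arrays was most like that of Eef1a2 were found by the root mean square difference between log2 values, each centred on the gene's own mean. Among 6955 other genes, where the median of this distance was 0.852, the closest was Ctnnal1, the gene of alpha-catulin (0.0972), which read 178.2 and 148.4 in the control clones, against 508.7 and 624.7 in the Prox1-labelled clones. Next came Idh1, a cytosolic isocitrate dehydrogenase gene (0.112), with 197.2 and 215.4 against 813.3 and 799.8. The others were the basement membrane gene Nid2 (0.171), the TGF-beta ligand gene Tgfb3 (0.184), Id2, an inhibitor of helix-loop-helix factors (0.229), and the isoprenoid enzyme gene Idi1 (0.240). In all 6 both Prox1-labelled clones were above both control clones, which the search for profiles like Eef1a2 favours by design. Like Eef1a2, the genes Nid2, Tgfb3 and Id2 passed the intensity filter only through the Prox1-labelled clones. Tgfb3 read 13.0 and 20.3 in the control clones, below the highest Bacillus control, as did Nid2 (82.05) and Id2 (60.49) in control clone 2, so the size of these steps is uncertain.

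**Figure D4:**
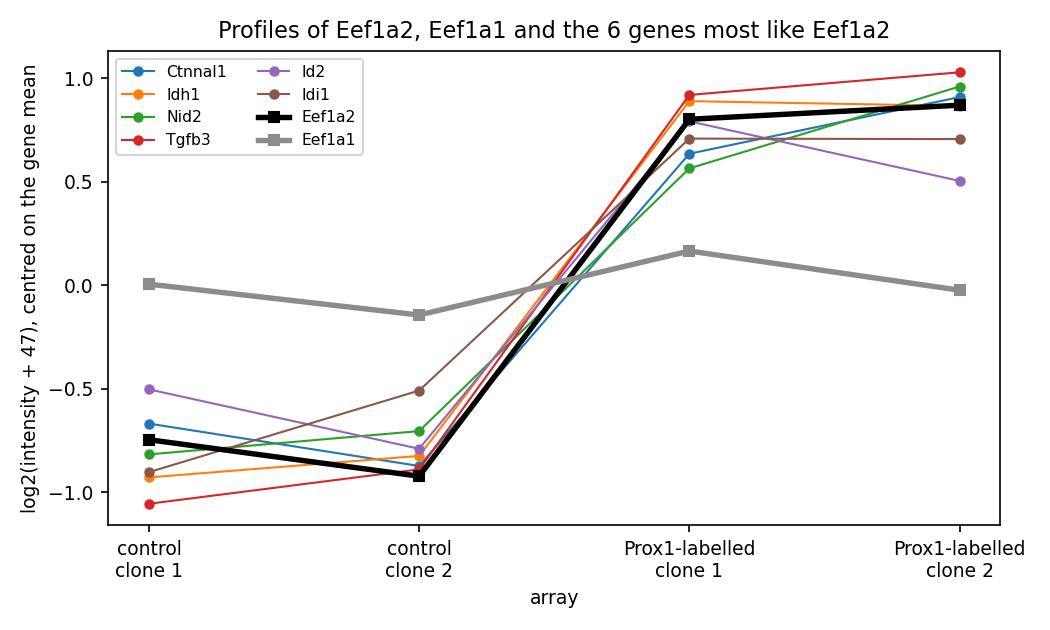
Log2(intensity + 47) of Eef1a2 (black), Eef1a1 (grey) and the 6 genes with the most similar profile (colours), each centred on its mean, in the 4 clones along the horizontal axis. The 6 genes and Eef1a2 are low in both control clones and high in both Prox1-labelled clones, while Eef1a1 stays near 0, with a fitted change of 0.14.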

How the data were processed

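Values deposited by the authors are linear intensities, with a column for each array. MAS5 is named in the submitters' processing notes, and its version is not given in the sources used here. The mean of each deposited column, trimmed by 2% at either end, was 500, and no further scaling was applied. Groups and clone numbers come from the sample titles.

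The platform annotation paired 20380 of the probe sets other than the 64 controls with 1 gene, while 691 had several genes and 1555 had none. Of the first kind, 20351 matched RefSeq (GRCm38.p6). Names come from the first kind alone, and upstream sequences come from RefSeq, where Eef1b2, Eef1a2, Eef2k, Eef1a1 and Eef2 matched.

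Each deposited intensity was raised by 47, the 25th percentile over the arrays, and the groups' log2 values were set against each other in R 4.3.3 with limma 3.58.1 (eBayes with an intensity trend, 2-sided, Benjamini-Hochberg adjustment over the 11656 probe sets above the array median in at least 2 of 4 arrays, threshold 0.05). A gene with several probe sets was read from the one with the highest mean. The precision is limited by the number of arrays, 4, and for 2 clones against 2 the smallest p of an exact permutation test is 0.333. The fit was tested on simulated data with known changes on the same log2 scale. When each probe set kept its own variance between clones, it found 2% of 2-fold and 50% of 4-fold changes. With variances drawn from the fitted prior, a choice that favours the fit and was made after the first result, it found 27% and 96%. A change of such size can therefore be missed.

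Named genes were every probe set of the 7 symbols, Prox1, up to 4 genes past the threshold or otherwise the 2 with the smallest p in each translation list, and the 6 genes with the profile most like Eef1a2. Any gene named outside this rule was picked with its values in view. The members and the lists were chosen with earlier results of these data known. Alternatives covered normalization, pseudocount, filter, variance model, a replicate block, the choice of probe set, and leaving out each clone.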

Additional observations from a re-analysis of the deposited data

How the results depend on the processing

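Over all probe sets, the count past the threshold was 12, and it was 4 under quantile normalization, 0 without the filter (limma, 2300 at an unadjusted p under 0.05), 7 with the robust variance model and 110 with the clone number as a replicate block. Leaving out 1 clone gave 42 to 1150, in fits that hold no spread between clones of 1 group. The member count of 1, Eef1a2, became 0 under quantile normalization, without the filter and with the filter at the 75th percentile. With a clone left out it was 1 to 1, which says nothing about stability, since Eef1a2 was chosen by this contrast and 1 arm is then a single clone. The log2 change of Eef1a2 was 1.64 (adjusted p = 0.0582) under quantile normalization and 1.67 (adjusted p = 0.367) under both other filters, and 1.58 to 1.76 with a clone left out. The labels do not say whether clones of equal number were handled together. Deviations of equal-numbered clones correlated at -0.0091 over 11656 probe sets, which cannot settle this, since each group gives 1 deviation. With the replicate block Eef1a2 had a limma adjusted p of 0.0029 and no other member passed.

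The Eef1a2 change minus that of Eef1a1 was 1.83 without a pseudocount, 1.06 with the larger one and 1.40 to 1.66 with a clone left out. Signs turned for Eef1b2 without control clone 1 (0.073, with -0.43 at the other end without control clone 2), Eef1d 1428135_a_at under quantile normalization (-0.053), median centring (-0.039) and without Prox1-labelled clone 1 (-0.16), Eef2 without Prox1-labelled clone 2 (0.071), Eef2k without control clone 1 (0.012) and Prox1-labelled clone 1 (0.079, down to -0.26 without the other), and Prox1 without control clone 2 (0.012) and Prox1-labelled clone 2 (0.083, down to -0.18). The cause of these shifts was not tested beyond the clone left out.

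With a clone left out, medians ran from -0.13 to 0.15 (elongation-linked genes), -0.040 to 0.17 (mitochondrial factors), -0.17 to 0.051 (initiation), -0.35 to -0.15 (termination and recycling), -0.058 to -0.020 (eEF2K regulators), -0.15 to 0.12 (ribosomal proteins) and -0.12 to 0.073 (members). Without probe sets of suffix s, x or a the medians were -0.033 for mitochondrial factors, -0.16 for termination and 0.14 for members, and median centring gave -0.071 for eEF2K regulators. Without control clone 2, where 1150 of 11656 probe sets were called (9.87%) and the control arm is 1 clone, Eef1e1, Eif5a, Eif4ebp1, Eif6, Mtor and Rps27 passed the threshold, with adjusted p from 0.0055 to 0.042. Of the genes most like Eef1a2, the call of Idh1 was lost in 1 alternative (no filter), that of Tgfb3 in 5 and that of Ctnnal1 in 6. Nid2, Id2 and Idi1 gained a call with the replicate block, where 110 of 11656 probe sets were called, and Nid2 also without the intensity trend. Their other gains came with a clone left out, and nothing is read from these gains. Dim probe sets such as Eef2k and Prox1 limit what can be seen.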
